A study of Mus musculus with 9 samples.

Results

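The nuclear-encoded genes of the respiratory chain and of ATP synthase were examined in the mouse ventricle. Their members were taken by symbol, as genes beginning with Nduf (complex I), Sdh followed by a, b, c or d (complex II), Uqcr (complex III), Cox4 to Cox8 (complex IV) and Atp5 (complex V). Of 104 matching symbols among the 49585 rows of the table, 7 pseudogenes were dropped, as were 2 genes with under 10 counts in more than 6 of the 9 libraries. That left 95 members, of which 80 encode subunits and 15 encode assembly factors or other proteins. Cox6b2 was just inside the limit, with 4 to 11 counts per library, and Cox7b2 just outside, with at most 5 counts. The other dropped gene, Cox8c, had 0 counts in every library, and so had the 7 pseudogenes. Cox6b2 was too low for the test, so 94 members were tested.

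RNA of the whole ventricle, freed of atria and valves, was sequenced after removal of ribosomal RNA in 9 libraries from male mice of a mixed C57BL/6 and ICR background, 3 libraries per group. All groups carried Tcf21iCre, an inducible Cre recombinase under the control of the fibroblast gene Tcf21, with the R26 tdTomato reporter, and all received tamoxifen, 2 mg per day for 5 days at week 5. Ctrl hearts came from mice on normal chow. Ctrl_HF hearts came from mice on a diet in which fat gave 60% of the calories. These mice also drank water with L-NAME, which blocks nitric oxide synthase, at 1.0 g/L. The treatment ran for 15 weeks, until the hearts of all groups were taken, and the labels name it a model of HFpEF, the form of heart failure in which the ejection fraction is kept. TTg_HF hearts came from mice under the same diet and drug that also carried MGTH2A. MGTH2A is a transgene for Gata4, Hand2, Mef2c and Tbx5, transcription factors of the heart, switched on by Cre in cells of the Tcf21 lineage, while the RNA came from all cells of the ventricle. No transgenic hearts on chow were analysed here, so TTg_HF differs from Ctrl in both genotype and treatment. The labels do not say that the libraries of a group came from separate animals, and p-values measure only the spread between these libraries.

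The respiratory chain passes electrons from NADH through complex I, and from succinate through complex II, to coenzyme Q, then through complex III and cytochrome c to complex IV, where oxygen is reduced. Complexes I, III and IV pump protons out of the mitochondrial matrix, and complex V, the ATP synthase, makes ATP as protons flow back. The heart has among the highest mitochondrial contents of any organ and makes most of its ATP in this way. All subunits of complex II and most subunits of the other complexes are encoded in the nucleus, and the remainder in the mitochondrial genome.

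Total counts were 6743109 to 9364336 per library, and 1 count was worth 0.105 to 0.147 CPM, the unit used below, in which each count is scaled to the library's total after TMM normalisation. The members took 3.45% to 4.12% of all counts and the mitochondrial genome 9.23% to 12.8%. A principal component analysis set Ctrl_HF replicate 2 (48.5) and replicate 3 (23.5) apart on the first component, which carried 31.2% of the variance. Ctrl_HF replicate 1 was at 5.12 there and the Ctrl and TTg_HF libraries between -23.5 and -2.33. Tbx5, which the transgene carries, was at 103, 189.8 and 139.8 CPM in TTg_HF, above 20.2 to 32.01 CPM in the other 6 libraries. Exons of 35 members overlap those of another gene, among them Atp5a1, Cox4i1, Cox5a, Cox6c, Ndufs1, Sdhaf4 and Uqcrc2 on the opposite strand. Whether counting used strand was not stated, so reads of such pairs may be mixed. The cardiomyocyte markers were the most abundant marker list, at a summed 65734 to 86322 CPM, and the 6 erythroid markers summed to 191 to 946 CPM.

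Levels of different members are compared here as mean CPM per kilobase of transcript in Ctrl, with lengths from the principal transcripts of GENCODE vM21. ATP synthase held the highest 3. Atp5b, the catalytic beta subunit, was at 2464 CPM per kilobase, Atp5a1, the alpha subunit, at 1805, and Atp5g3, 1 of the genes for the c subunit of the rotor, at 1496. Cox4i1, a subunit of complex IV, followed at 1372. The median over the subunits was 281 CPM per kilobase in complex I (36 genes), 402 in complex II (4), 609 in complex III (8), 437 in complex IV (17) and 697 in complex V (15). Complex IV ranged from 2.47 for Cox6b2, an isoform known from testis, to the level of Cox4i1. Among members with a length the lowest was Sdhaf3, an assembly factor of complex II, at 2.45 CPM per kilobase. Atp5sl has no entry in this annotation and no length.

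Promoters of 77 of the 95 members were found in RefSeq's table for GRCm38.p6, which holds 300 bases per start site, 250 before it and 50 after. NRF1 and GABP are transcription factors known as activators of respiratory genes. The letters of an NRF1 motif (GCGCATGCG) were present for 10 of the 77 genes (12.99%) and for 527 of all 27025 genes in the table (1.95%). The letters of an ETS motif that GABP can bind (CCGGAAG) were present for 21 members (27.3%) and for 9.93% of all genes. A YY1 motif (AAGATGGCG) was present for 8 members (10.4%) and 1.64% of all genes. A motif of the estrogen-related receptors (TNAAGGTCA) was present for 3 members (3.90%) and 1.43% of all genes. A TATA box (TATAAA) was present for 7 members (9.09%) and 15.7% of all genes, and a MEF2 motif for 0 members and 3.70% of all genes. Both strands were searched, a gene was counted when any of its start sites had a match, and no match of a member overlapped a match of another motif. A match is a description of the letters in the window and not evidence of binding. The shares over all genes include genes that were not tested for expression here, and the differences from them were not tested.

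The promoters shown are those of a called gene, Atp5o, of Uqcrc1 and Sdhb, which hold an NRF1 and an ETS match, and of the isoform pair Cox8a and Cox8b, whose windows differ in their matches. They are written 5′ to 3′ on the strand of the gene, with matches to the 6 motifs in capitals. Atp5o (chr16:91931581-91931880, minus strand) has no match in the window, Uqcrc1 (chr9:108936398-108936697, plus strand) an NRF1 match after the start site, and Sdhb (chr4:140961021-140961320, plus strand) an ETS match after it. The ubiquitous Cox8a (chr19:7217567-7217866, minus strand) has an ETS match across the start site and another after it. The muscle isoform Cox8b (chr7:140900397-140900696, minus strand) has a TATA match 4 bases after the start site that RefSeq gives.
Atp5o: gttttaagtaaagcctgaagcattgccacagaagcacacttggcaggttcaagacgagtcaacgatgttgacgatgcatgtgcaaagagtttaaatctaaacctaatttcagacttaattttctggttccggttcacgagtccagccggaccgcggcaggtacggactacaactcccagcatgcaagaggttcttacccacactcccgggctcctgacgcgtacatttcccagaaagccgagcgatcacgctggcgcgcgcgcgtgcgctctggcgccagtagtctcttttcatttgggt
Uqcrc1: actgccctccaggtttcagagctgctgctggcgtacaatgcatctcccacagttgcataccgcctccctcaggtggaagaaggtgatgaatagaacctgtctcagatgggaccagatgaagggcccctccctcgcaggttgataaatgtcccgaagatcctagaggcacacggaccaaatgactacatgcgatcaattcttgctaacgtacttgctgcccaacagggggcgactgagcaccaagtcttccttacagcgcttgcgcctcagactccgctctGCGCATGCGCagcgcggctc
Sdhb: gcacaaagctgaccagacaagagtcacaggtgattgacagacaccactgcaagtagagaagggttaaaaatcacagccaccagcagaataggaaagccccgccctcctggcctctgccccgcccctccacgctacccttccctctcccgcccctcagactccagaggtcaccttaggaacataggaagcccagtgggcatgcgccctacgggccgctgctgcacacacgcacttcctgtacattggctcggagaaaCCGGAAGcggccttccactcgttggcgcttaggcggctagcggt
Cox8a: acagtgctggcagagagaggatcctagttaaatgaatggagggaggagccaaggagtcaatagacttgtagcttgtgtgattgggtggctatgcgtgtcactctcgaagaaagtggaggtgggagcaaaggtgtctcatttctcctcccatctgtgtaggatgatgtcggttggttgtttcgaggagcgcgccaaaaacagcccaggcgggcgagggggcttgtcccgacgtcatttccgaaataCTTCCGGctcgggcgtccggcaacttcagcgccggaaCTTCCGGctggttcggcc
Cox8b: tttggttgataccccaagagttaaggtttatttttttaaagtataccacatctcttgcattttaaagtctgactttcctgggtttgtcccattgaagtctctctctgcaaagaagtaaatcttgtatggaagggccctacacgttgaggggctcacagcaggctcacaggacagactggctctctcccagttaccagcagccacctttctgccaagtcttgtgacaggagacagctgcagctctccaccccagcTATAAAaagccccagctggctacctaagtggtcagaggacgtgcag

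In Ctrl_HF against Ctrl, which asks what differs under diet and L-NAME, 1 of 94 tested members fell and none rose at an adjusted p under 0.05. DESeq2 called 8 of 95 members (8.42%), all lower, against 6.20% of 13430 genes called and 2.80% called lower by DESeq2. The gene that fell by edgeR was Atp5o, the subunit of ATP synthase that ties the catalytic head to the peripheral stalk. The background was 3.61% of 12670 tested genes called, 1.82% lower and 1.79% higher. Most log2 fold changes of the other members were small and below 0. Of all tested members, the log2 fold change was below 0 for 81 members and above 0 for 13, with a median of -0.11, against 48.5% of all tested genes below 0 and a median of 0.0088. At an unadjusted p under 0.05, 27 members (28.7%) were lower and 0 higher, where the background was 9.69% lower and 10.9% higher. The 3 Ctrl_HF libraries lay below the 3 Ctrl libraries without overlap for 35 members (37.2%) and above them for 0, against 11.8% and 11.5% of all tested genes. Genes of the same organelle share their source in each library, so these counts are no sum of independent tests.

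**Figure D1:**
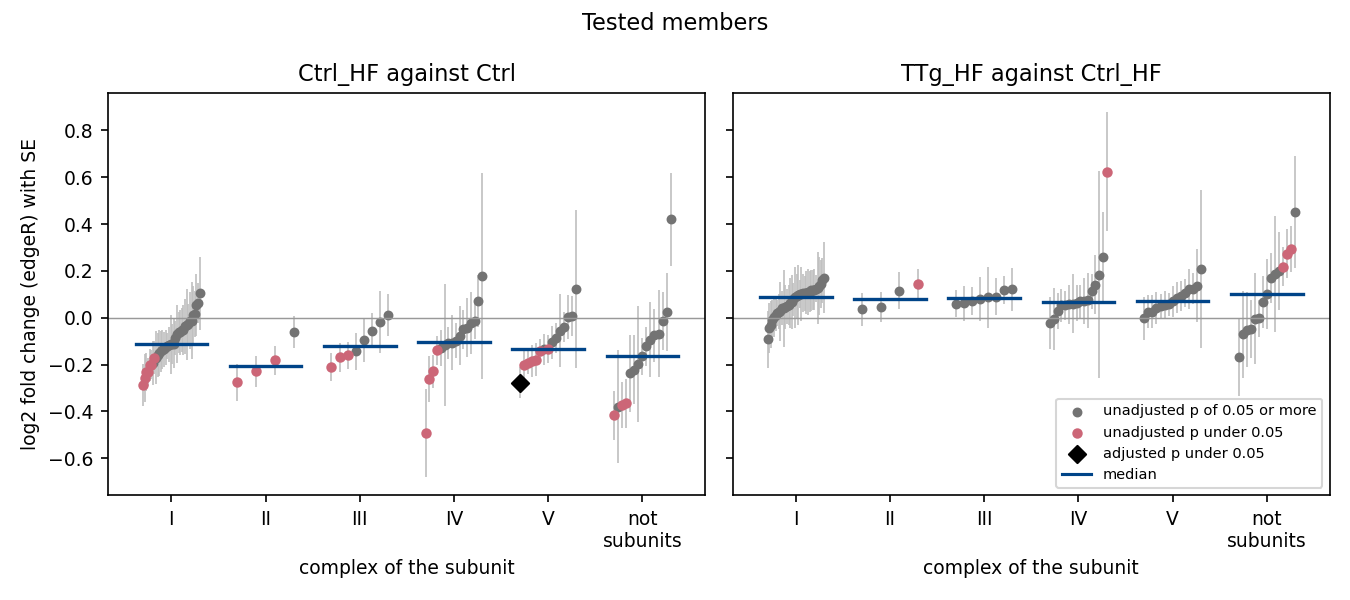
Log2 fold change of each tested member with its standard error, by complex of the subunit and for the 15 members that are not subunits, in Ctrl_HF against Ctrl (left) and TTg_HF against Ctrl_HF (right). The medians lie between -0.21 and -0.10 on the left for the 5 complexes and between 0.066 and 0.089 on the right; the black diamond is Atp5o, the only member with an adjusted p under 0.05.

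The medians of all 5 complexes were below 0. The median log2 fold change over the subunits was -0.11 in complex I, -0.21 in complex II, -0.12 in complex III, -0.10 in complex IV and -0.13 in complex V. Below 0 were 31 of 36 subunits of complex I, 4 of 4 of complex II, 7 of 8 of complex III, 14 of 16 tested subunits of complex IV and 12 of 15 of complex V. These medians were not tested against each other. By library, the median over complex II subunits of the log2 CPM relative to the Ctrl mean was -0.15, -0.18 and -0.23 in Ctrl_HF and -0.025, 0.017 and 0.022 in Ctrl, without overlap. For complex V it was -0.16, -0.11 and -0.15 against -0.039, -0.0029 and 0.058, also without overlap. For complexes I, III and IV, Ctrl replicate 1 lay within or below the Ctrl_HF libraries. Complex I stood at -0.13, 0.018 and 0.11 in Ctrl and at -0.085, -0.079 and -0.15 in Ctrl_HF.

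**Figure D2:**
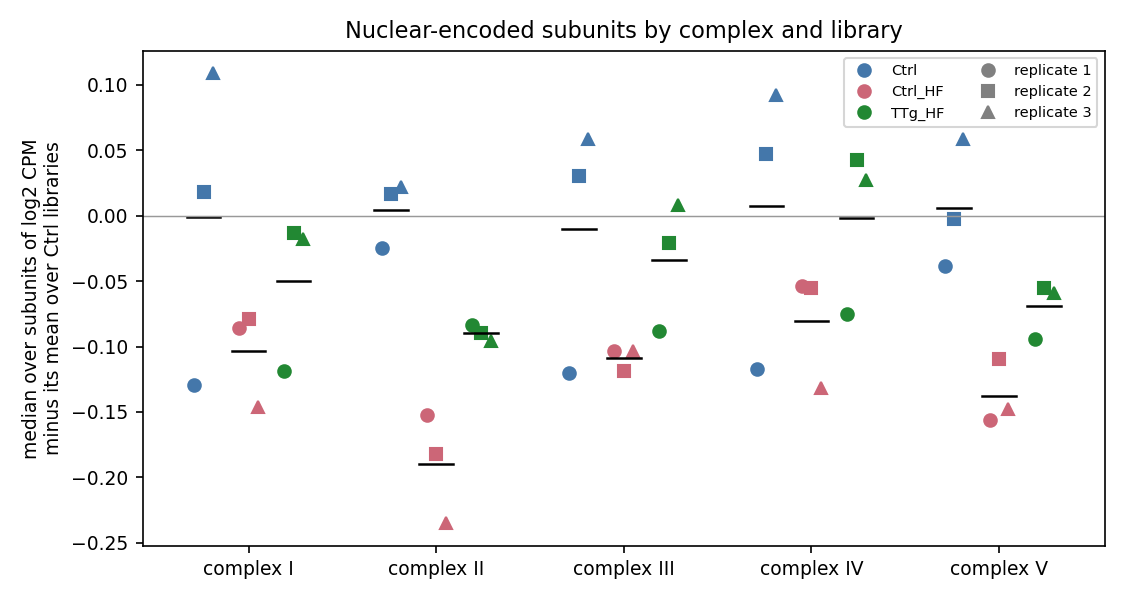
Median over the subunits of each complex of log2 CPM minus its mean over the Ctrl libraries, for each of the 9 libraries (colour, group; shape, replicate; bar, mean of the group). The Ctrl_HF libraries lie below all Ctrl libraries in complexes II and V, while Ctrl replicate 1 lies within or below the Ctrl_HF libraries in complexes I, III and IV. Ctrl replicate 1 was low for short transcripts, so complex and transcript length cannot be told apart.

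Complex I consists of core subunits, which carry the flavin, the iron-sulfur clusters and the quinone site, and of accessory subunits around them. All 7 nuclear core subunits were below 0, with a median log2 fold change of -0.19. For 6 of them (85.7%) Ctrl_HF lay below Ctrl without overlap, against 11.8% of all tested genes. Ndufv2, an iron-sulfur subunit of the NADH-oxidising module, was at 547, 539 and 554 CPM in Ctrl, 457, 469 and 472 in Ctrl_HF, and 496, 509 and 519 in TTg_HF. Its Ctrl_HF libraries lay below the other 6, with a log2 fold change of -0.23 against Ctrl (SE 0.059, edgeR adjusted p = 0.059). Ndufs1, the largest iron-sulfur subunit, was at 783, 774 and 745 CPM in Ctrl, 678, 641 and 686 in Ctrl_HF, and 700.4, 721 and 726 in TTg_HF. The 3 groups did not overlap, with Ctrl highest and Ctrl_HF lowest (-0.20, SE 0.060, edgeR adjusted p = 0.0953 for Ctrl_HF against Ctrl). Ndufv1, which binds NADH and the flavin, was at 611, 635 and 666 CPM in Ctrl, 611, 579.8 and 550.4 in Ctrl_HF, and 549.7, 598 and 625 in TTg_HF. The highest Ctrl_HF library (611.1 CPM) was level with the lowest Ctrl library (611.2 CPM), with a log2 fold change of -0.14 (SE 0.073, edgeR adjusted p = 0.328).

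The medians of the accessory subunits of complex I were nearer to 0, a difference that was not tested. Of all tested genes 11.8% were lower in Ctrl_HF without overlap. Of 21 accessory subunits of the membrane arm 17 were below 0, with a median of -0.087 and 5 (23.8%) without overlap. Of 7 of the NADH module 6 were below 0, with a median of -0.061 and 1 (14.3%) without overlap, near the share of all genes. Ndufb4, an accessory subunit of the membrane arm, had the lowest p of these at 84.4, 100.4 and 93.3 CPM in Ctrl and 73.1, 77.5 and 77.1 in Ctrl_HF, without overlap (-0.29, SE 0.089, edgeR adjusted p = 0.1). Ndufa7, an accessory subunit of the NADH module, was at 128, 138 and 151 CPM in Ctrl and 135, 146 and 119 in Ctrl_HF, and these groups overlapped (-0.061, SE 0.10). Of 8 assembly factors of complex I 7 were below 0. Ndufaf1, which helps to build the membrane arm, was at 36.2, 36.6 and 35.1 CPM in Ctrl, 29.4, 25.2 and 28.6 in Ctrl_HF, and 34.4, 35.4 and 32.3 in TTg_HF. All 3 Ctrl_HF libraries lay below the other 6 (-0.37, SE 0.10, edgeR adjusted p = 0.0609). Ndufaf7, a methyltransferase needed for complex I assembly, was at 25.1, 28.4 and 26.4 CPM in Ctrl, 19.99, 20.9 and 21.1 in Ctrl_HF, and 23.9, 21.3 and 24.6 in TTg_HF, and the 3 groups did not overlap (-0.37, SE 0.11, edgeR adjusted p = 0.0852). Ndufaf8, named here as the member farthest above 0, was at 10.01, 10.9 and 15.6 CPM in Ctrl and 16.4, 18.4 and 14.1 in Ctrl_HF, with overlap (0.42, SE 0.20, edgeR adjusted p = 0.258).

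Complex II, succinate dehydrogenase, is also an enzyme of the citric acid cycle. Sdha, its flavoprotein, was at 1308, 1509.7 and 1504 CPM in Ctrl, 1289, 1173 and 1107 in Ctrl_HF, and 1325, 1313 and 1229.6 in TTg_HF. Every Ctrl_HF library was below every Ctrl library, narrowly so for Ctrl replicate 1, and TTg_HF overlapped with both groups (-0.28, SE 0.079, edgeR adjusted p = 0.0814 for Ctrl_HF against Ctrl). Sdhb, the iron-sulfur subunit, was at 695, 687 and 653 CPM in Ctrl, 566, 608 and 562 in Ctrl_HF, and 584, 588 and 620.04 in TTg_HF. Its Ctrl libraries lay above the 6 libraries of the treated groups (-0.23, SE 0.065, edgeR adjusted p = 0.0767). Sdhd, a membrane anchor, was at 372, 376 and 387 CPM in Ctrl, 342, 330.5 and 329 in Ctrl_HF, and 366, 366 and 375 in TTg_HF, with Ctrl_HF below the other 6 (-0.18, SE 0.062, edgeR adjusted p = 0.128). The other anchor, Sdhc, was at 499, 513 and 513 CPM in Ctrl and 523, 452 and 489 in Ctrl_HF, and there the groups overlapped (-0.060, SE 0.069). Sdhaf4, which assists the assembly of flavin-loaded Sdha, was at 30.8, 34.4 and 33.8 CPM in Ctrl, 26.6, 24.1 and 23.5 in Ctrl_HF, and 27.4, 30.2 and 31.9 in TTg_HF. The Ctrl_HF libraries lay below the other 6, with the second-lowest adjusted p of the members (-0.42, SE 0.10, edgeR adjusted p = 0.0544). Sdhaf3, which acts in maturation of Sdhb, was at 11.5, 8.43 and 11.8 CPM in Ctrl and 9.86, 11.6 and 10.9 in Ctrl_HF and overlapped (0.024, SE 0.17).

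In complex III the 3 large subunits had a median log2 fold change of -0.17, and for each Ctrl_HF lay below Ctrl without overlap. That held for 11.8% of all tested genes. Uqcrc1, a core protein, was at 1191, 1238 and 1263 CPM in Ctrl, 1047, 1095 and 1053 in Ctrl_HF, and 1067, 1153 and 1139 in TTg_HF, and every Ctrl library was above the 6 treated libraries (-0.21, SE 0.060, edgeR adjusted p = 0.0808 for Ctrl_HF against Ctrl). Uqcrc2, the other core protein, was at 931, 911 and 916 CPM in Ctrl, 788, 843 and 837 in Ctrl_HF, and 852, 853 and 866 in TTg_HF, and the 3 groups did not overlap (-0.16, SE 0.058, edgeR adjusted p = 0.146). Uqcrfs1, the Rieske iron-sulfur protein, was at 696, 678 and 676 CPM in Ctrl, 579, 618 and 626 in Ctrl_HF, and 648, 665 and 664 in TTg_HF, again with 3 separate groups (-0.17, SE 0.060, edgeR adjusted p = 0.145). The 5 small accessory subunits had a median log2 fold change of -0.056, and all overlapped. By library, their median relative to the Ctrl mean was -0.17, 0.047 and 0.14 in Ctrl and -0.023, -0.042 and -0.063 in Ctrl_HF, with Ctrl replicate 1 the lowest. The difference between large and small subunits was not tested. Among the small subunits Uqcr10 was at 211, 247 and 265 CPM in Ctrl and 249.6, 234 and 246 in Ctrl_HF (0.012, SE 0.091).

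In complex IV the nuclear subunits surround a catalytic core encoded by the mitochondrial genome. Cox5a, a matrix-facing subunit, was at 688, 726 and 741 CPM in Ctrl, 582, 622 and 635 in Ctrl_HF, and 596, 667 and 667 in TTg_HF, and Ctrl lay above the 6 treated libraries (-0.23, SE 0.071, edgeR adjusted p = 0.101 for Ctrl_HF against Ctrl). Cox6c was at 487, 568 and 531 CPM in Ctrl and 382, 465 and 474 in Ctrl_HF, without overlap (-0.26, SE 0.10, edgeR adjusted p = 0.16). Cox4i1, the most abundant of the nuclear-encoded subunits of the complex, was at 943, 1029 and 1096 CPM in Ctrl and 1039, 1069.95 and 927 in Ctrl_HF and overlapped (-0.015, SE 0.076). Ndufa4, named for complex I but now placed in complex IV and counted there, was at 546, 594 and 645 CPM in Ctrl and 547, 577 and 544 in Ctrl_HF (-0.10, SE 0.075), with overlap. Its paralogue Ndufa4l2, which hypoxia is known to induce, was at 9.52, 10.5 and 9.497 CPM in Ctrl, 6.16, 6.87 and 7.88 in Ctrl_HF, and 9.09, 9.59 and 6.45 in TTg_HF. Its Ctrl_HF libraries lay below the Ctrl libraries, at the lowest log2 fold change of the members (-0.49, SE 0.19, edgeR adjusted p = 0.167). Counted with complex I instead, Ndufa4 and Ndufa4l2 left its median at -0.11 and moved that of complex IV from -0.10 to -0.091.

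Complex IV has muscle isoforms that replace ubiquitous ones in heart and skeletal muscle. Each share here is that of the muscle isoform in the summed counts of its pair, with no correction for length and no test. Cox6a2 took 66.7%, 83.0% and 85.5% of the Cox6a2 and Cox6a1 counts in Ctrl, 85.0%, 77.1% and 84.4% in Ctrl_HF, and 84.3%, 84.2% and 85.3% in TTg_HF. The lowest share, in Ctrl replicate 1, had an exact binomial 95% interval of 63.8% to 69.5%, which covers counting error only, and lay apart from the other 8 libraries. Cox7a1 took 61.5% ± 3.95, 61.8% ± 1.73 and 62.2% ± 0.428 (SD, n = 3 each) of the Cox7a1 and Cox7a2 counts in Ctrl, Ctrl_HF and TTg_HF. Cox8b took 80.8% ± 2.71, 80.8% ± 0.818 and 80.8% ± 0.226 of the Cox8b and Cox8a counts in the same groups. For each of these 3 pairs the group means differed by less than the SD of the Ctrl libraries. In CPM, Cox6a1 was at 43.5, 49.4 and 57.3 CPM in Ctrl, 51.9, 56.7 and 49.6 in Ctrl_HF, and 48.4, 52.5 and 54.5 in TTg_HF. Cox7a1 was at 379.6, 484 and 535 CPM in Ctrl, 468, 398 and 433 in Ctrl_HF, and 422, 475 and 473 in TTg_HF, and the ubiquitous Cox7a2 at 285, 287 and 292 CPM in Ctrl, 276, 267 and 259 in Ctrl_HF, and 261, 288 and 282 in TTg_HF. The Cox7a2 libraries of Ctrl_HF lay below those of Ctrl (-0.11, SE 0.069, edgeR adjusted p = 0.41), while those of Cox7a1 overlapped. Cox8b was at 272, 357 and 418 CPM in Ctrl, 333, 333 and 327 in Ctrl_HF, and 328, 354 and 352 in TTg_HF, and Cox8a at 77.7, 80.4 and 85.7 CPM in Ctrl, 83.7, 75.3 and 76.7 in Ctrl_HF, and 77.5, 85.3 and 82.3 in TTg_HF, both with overlap between all groups. Cox4i1 took 99.65% ± 0.0274, 99.67% ± 0.106 and 99.51% ± 0.0272 (SD, n = 3 each) of the Cox4i1 and Cox4i2 counts in Ctrl, Ctrl_HF and TTg_HF. The shares in TTg_HF, 99.48% to 99.53%, lay below those of the other 6 libraries, 99.56% to 99.78%, and the TTg_HF mean was below the Ctrl mean by more than the SD of either group. Exact binomial 95% intervals still overlapped, at 99.38% to 99.66% in TTg_HF replicate 2 and 99.39% to 99.70% in Ctrl_HF replicate 2. Only the interval of Ctrl_HF replicate 1 lay above those of TTg_HF replicates 1 and 3. The difference was not tested.

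**Figure D3:**
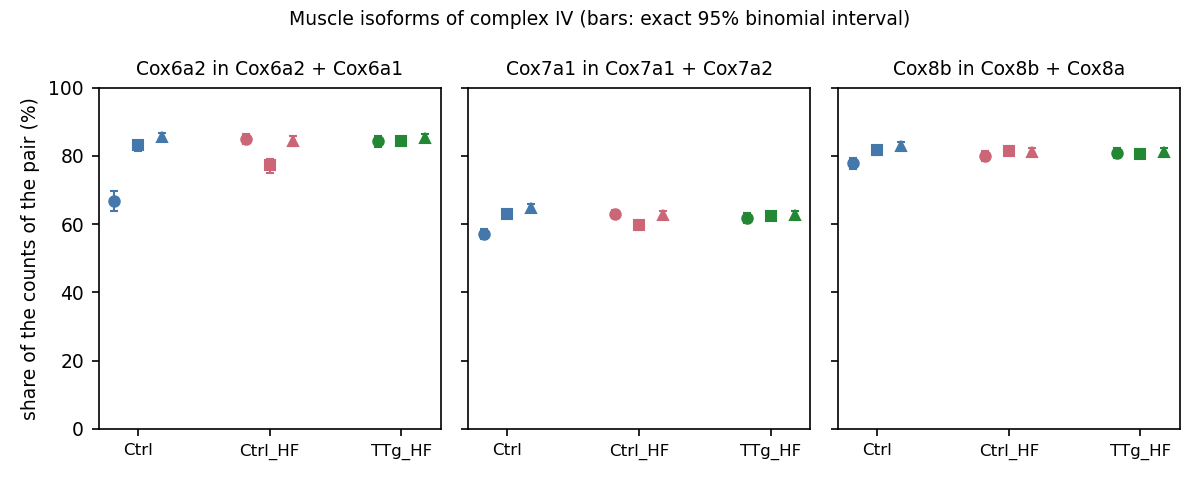
Share of the muscle isoform in the counts of each complex IV isoform pair, for the 9 libraries (circle, square and triangle, replicates 1, 2 and 3; bars, exact 95% binomial interval). The shares of the groups overlap in all 3 pairs, and Ctrl replicate 1 is the lowest of its group in each, at 66.7% for Cox6a2.

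In complex V, 7 of 15 subunits (46.7%) were lower at an unadjusted p under 0.05, against 9.69% of all tested genes. Of these 7, 3 were in the catalytic head, 3 in the peripheral stalk and 1 in the c ring. Atp5o (chr16:91925214-91931687, minus strand, GRCm38) was at 586, 593 and 598 CPM in Ctrl, 491, 512 and 462 in Ctrl_HF, and 508, 551 and 538 in TTg_HF. Ctrl lay above the 6 treated libraries, with its own libraries close together, and Ctrl_HF overlapped with TTg_HF. It fell in Ctrl_HF by 0.28 on the log2 scale (SE 0.066, edgeR adjusted p = 0.0447). The call ended on leaving out any library other than Ctrl_HF replicate 1, with adjusted p from 0.0573 (without Ctrl_HF replicate 2) to 0.161 (without Ctrl replicate 2). The log2 fold change stayed between -0.31 and -0.24 in the 20 alternative analyses, of which 8 kept the call. Exons of Atp5o overlap those of Donson on the same strand, and the sources used here do not say how such reads were counted.

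Atp5a1 was at 4484, 4453 and 4445 CPM in Ctrl, 3919.7, 3944 and 3849 in Ctrl_HF, and 3963, 4114 and 4113 in TTg_HF, and the 3 groups did not overlap (-0.19, SE 0.049, edgeR adjusted p = 0.0558 for Ctrl_HF against Ctrl). Atp5b was at 4643, 4711 and 4809 CPM in Ctrl, 4236, 4439 and 4171 in Ctrl_HF, and 4423, 4415 and 4469 in TTg_HF, with Ctrl above the 6 treated libraries (-0.14, SE 0.050, edgeR adjusted p = 0.145). Atp5c1, the gamma subunit that forms the rotating shaft, was at 791, 802 and 846 CPM in Ctrl, 706, 694 and 721 in Ctrl_HF, and 751, 752 and 780.1 in TTg_HF, in 3 separate groups (-0.20, SE 0.059, edgeR adjusted p = 0.0901). The 3 genes for the c subunit, which encode the same mature protein, differed in their values. Atp5g1 was at 746, 786 and 832 CPM in Ctrl and 706, 681 and 693 in Ctrl_HF, without overlap (-0.19, SE 0.068), while Atp5g2 was at 73.7, 67.9 and 77.97 CPM in Ctrl and 74.1, 66.7 and 79.1 in Ctrl_HF, with overlap (0.0031, SE 0.092). Atp5g3 overlapped in 1 library, at 994, 1099 and 1111 CPM in Ctrl and 956, 962 and 999 in Ctrl_HF (-0.14, SE 0.065). That Atp5g1 and Atp5g2 differ in response was not tested.

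**Figure D4:**
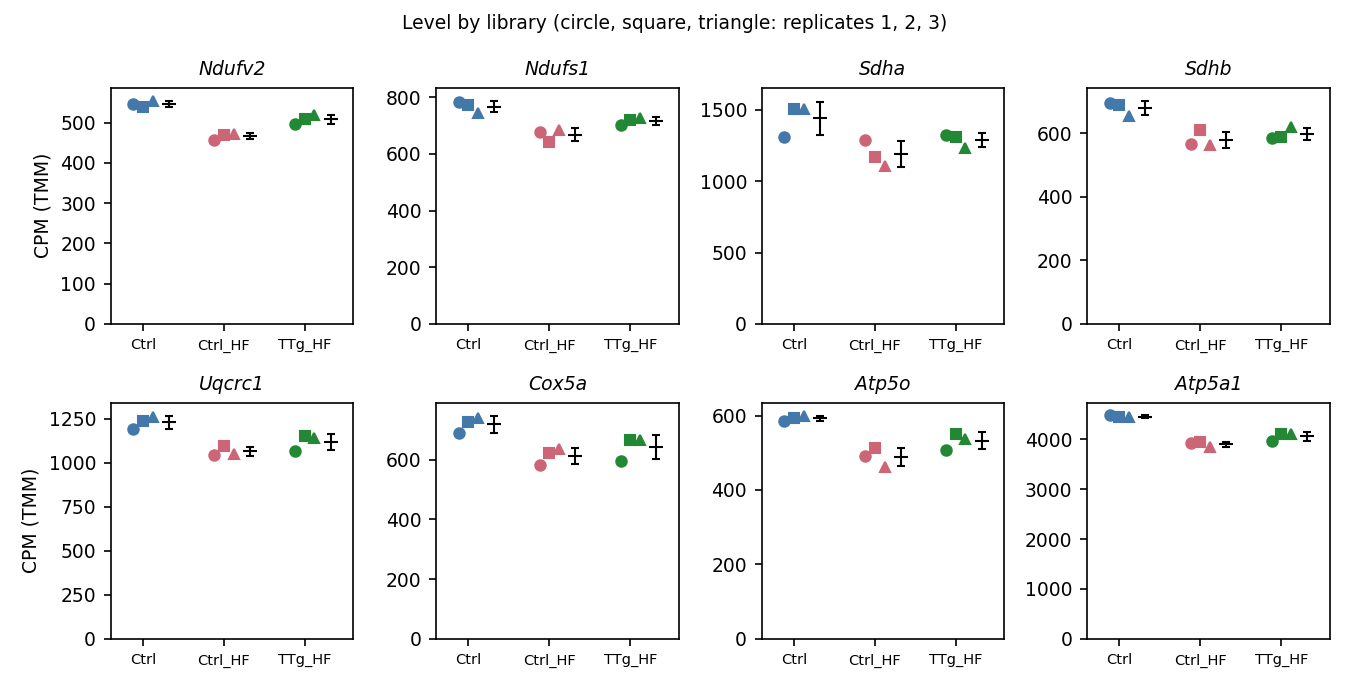
CPM after TMM scaling of 8 members in the 9 libraries (circle, square and triangle, replicates 1, 2 and 3; bar, mean and SD of the 3 libraries). In all 8 the Ctrl_HF libraries lie below the Ctrl libraries, and only Atp5o passed the adjusted threshold, at 586, 593 and 598 CPM in Ctrl and 491, 512 and 462 in Ctrl_HF. The 8 were picked from the named members, of which others, such as Cox4i1, overlapped. Of all tested members 35 (37.2%) lay below Ctrl in this way, against 11.8% of all tested genes.

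Values of the members moved with single libraries and with transcript length. Ctrl replicate 1 was the lowest of its group for 77 of the 94 tested members and Ctrl replicate 3 the highest for 69. TTg_HF replicate 1 was the lowest of its group for 71. The shorter the transcript, the lower Ctrl replicate 1 lay: the median deviation from the Ctrl mean on the log2 scale was -0.16 for the 32 members of 360 to 659 bases, -0.11 for the 30 of 678 to 1110 bases and -0.026 for the 31 of 1142 bases or more. Across 93 members with a length, Spearman's rho of this deviation with length was 0.48, and it was 0.17 across 12375 tested genes. Over the members, rho was -0.26 and -0.44 in Ctrl replicates 2 and 3, whose deviations are tied to that of replicate 1 through the group mean. In Ctrl_HF replicates 1, 2 and 3 it was -0.24, -0.065 and 0.25, and in TTg_HF replicates 1, 2 and 3 it was 0.24, -0.30 and -0.069. TTg_HF replicate 1 had median deviations of -0.074, -0.061 and -0.032 for short, middle and long members. Genes are not independent replicates, and no p is given. Extreme cases were Cox6a2, at 87.1, 242 and 337 CPM in the Ctrl libraries, and Atp5k, a small membrane subunit of ATP synthase, at 57.3, 139.6 and 169 CPM.

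**Figure D5:**
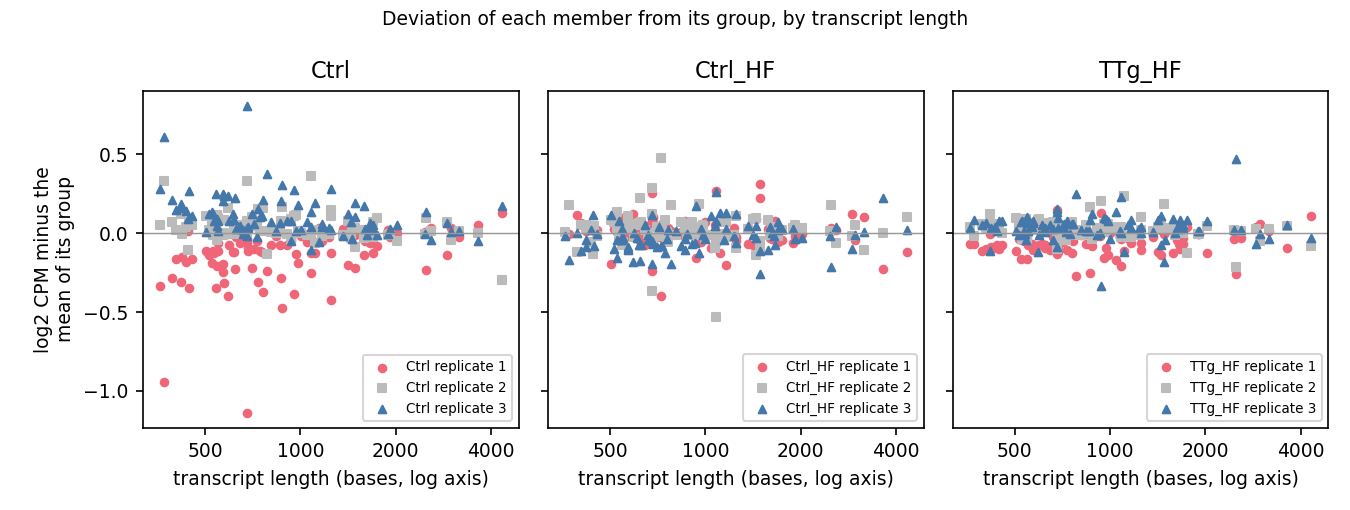
Deviation of log2 CPM of each of 93 members from the mean of its group, against transcript length on a log axis, by library. In Ctrl, the points of replicate 1 lie below 0 for short transcripts (median -0.16 at 360 to 659 bases) and close to 0 for long ones (median -0.026 at 1142 bases or more).

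The median log2 fold change in Ctrl_HF against Ctrl was -0.082, -0.11 and -0.16 for short, middle and long members. Without Ctrl replicate 1 it was -0.18, -0.17 and -0.17, with 90 of 94 members below 0, 35 lower at an unadjusted p under 0.05 and 0 past the adjusted threshold. Without Ctrl replicate 3 the median over all members was -0.078, with 65 of 94 below 0 and 19 lower at an unadjusted p. After removal of a trend on transcript length from each library the medians were -0.12, -0.11 and -0.15, and Atp5o and Sdhaf4 were called lower. The median transcript length was 1623 bases for the core subunits of complex I and 732 for the accessory subunits of its membrane arm, and 1653 for the core and 445 for the accessory subunits of complex III. It was 2065.5 bases for the subunits of complex II. Over the roles of subunits it ran from 544 to 1166 in complex V and from 393 to 727 in complex IV. Role, complex and length cannot be told apart in the medians of the members. Without Ctrl_HF replicates 2 and 3, the 2 libraries highest on that component, the median was -0.11, with 71 of 95 members below 0, 19 lower at an unadjusted p under 0.05 and 0 called.

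Markers of cell types differed in the same comparison. All 10 cardiomyocyte markers were below 0 in Ctrl_HF against Ctrl, with a median log2 fold change of -0.32 and 3 called lower (Atp2a2, Mybpc3 and Myl3). Their summed level was 77972 to 86322 CPM in Ctrl, 65734 to 69709 in Ctrl_HF and 69585 to 72904 in TTg_HF. The 10 fibroblast markers were all above 0 with 0 called (median 0.37), at a summed 2057 to 2212 CPM in Ctrl and 2379 to 3264 in Ctrl_HF. The 10 macrophage markers were all above 0 with 2 called higher, C1qb and Mrc1, at a summed 289 to 354 CPM in Ctrl and 386 to 513 in Ctrl_HF. Of 10 endothelial markers 7 were above 0, with 0 called, and of 10 smooth muscle and pericyte markers 4, with Abcc9 called lower. All 6 erythroid markers were above 0 (median 0.68) with 0 called, at a summed 429 to 658 CPM in Ctrl and 778 to 946 in Ctrl_HF. Of 6 atrial markers 5 were tested, and 4 of these were above 0 (median 0.48) with 0 called. Only 1 of 8 adipocyte and 2 of 8 skeletal muscle markers were high enough to test. Of the latter 2, Acta1 lay above Ctrl without overlap (1.98, SE 0.45, edgeR adjusted p = 0.0655), while the other was below 0 (-0.14) with overlap. The rest of that list was too low to test, so these 2 genes are not read as a sign of skeletal muscle. The part of all these marker lists in the members' values was not tested. In whole ventricle, fewer cells of a type and less RNA per cell cannot be told apart.

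Other genes of the pathway were counted from lists chosen for it. Of 4 subunits or regulators under other symbols (Cyc1, Usmg5, 2010107E04Rik and Atpif1) 4 were below 0 in Ctrl_HF against Ctrl and 0 called. All 14 enzymes of the citric acid cycle were below 0, with a median of -0.14 and 0 called. Of these, 11 (78.6%) were without overlap, against 11.8% of all tested genes. Of 12 genes of coenzyme Q synthesis 10 were below 0, and Coq8a, a kinase-like protein needed for it, was called lower at 671, 630.04 and 586 CPM in Ctrl, 486, 357 and 349 in Ctrl_HF, and 545, 499.8 and 539.9 in TTg_HF (-0.66, SE 0.12, edgeR adjusted p = 0.0154). Of 21 tested assembly factors of complex IV 15 were below 0. At an unadjusted p under 0.05, 5 of them (23.8%) were lower and 2 (9.52%) higher, against 9.69% and 10.9% of all tested genes. Cox10, which makes heme for complex IV, was called lower at 72.4, 72.2 and 77.5 CPM in Ctrl, 55.2, 56.6 and 53.3 in Ctrl_HF, and 68.2, 65.98 and 60.4 in TTg_HF (-0.43, SE 0.082, edgeR adjusted p = 0.0212). Of 9 further assembly factors of complex I 7 were below 0, as were 6 of 6 of complex III and 2 of 2 of complex V, with 0 called. Of 7 genes for electron carriers 5 were below 0, all with overlap, and 0 called. Etfdh, also in that list, lay above Ctrl without overlap (0.22, SE 0.062, edgeR adjusted p = 0.0746). The summed level of the electron carriers was 1671 to 1700 CPM in Ctrl and 1738 to 1906 in Ctrl_HF. The 13 protein-coding genes of the mitochondrial genome, which encode the remaining subunits, had 12 above 0, a median of 0.11, 0 called and 0 without overlap. Their summed level was 90717 to 124153 CPM in Ctrl and 100841 to 131438 in Ctrl_HF, with Ctrl replicate 1 the lowest. Mean levels in Ctrl ran from 18.9 CPM for mt-Nd4l to 50427 CPM for mt-Co1, so the most abundant of these genes weigh most in the sum. Beside mt-Co1, mt-Co2 stood at 20.99 CPM and mt-Co3 at 41.4 CPM. How reads with several matches in the genome were counted was not given, so these levels are not read as transcript abundance.

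In TTg_HF against Ctrl_HF, which compares hearts with and without the transgene under the same diet and drug, 0 of 94 members were called by edgeR, and 0 by DESeq2. The background was 0.0868% of 12670 genes by edgeR, 0.0474% higher and 0.0395% lower, and 2.78% of genes by DESeq2. At an unadjusted p under 0.05, 5 members (5.32%) were higher, near the background of 6.08% higher, and 0 were lower, against a background of 8.18% lower. Members above 0 numbered 81, with a median log2 fold change of 0.077 (0.089, 0.080, 0.083, 0.066 and 0.071 for complexes I to V). Below 0 were 13 members (13.8%), against 50.1% of all genes, whose median was -0.00097. TTg_HF lay above Ctrl_HF without overlap for 22 members (23.4%) and below it for 0, with a background of 9.31% and 9.53%. This comparison shares the Ctrl_HF libraries with the comparison above, so low values in those libraries enter both.

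The 5 members with an unadjusted p under 0.05 were Ndufaf1, Sdhaf4, Sdhd, Cox4i2 and Cox7a2l, and in each TTg_HF lay above Ctrl_HF without overlap. Cox7a2l, which joins complexes III and IV into supercomplexes, was at 184, 199 and 219.6 CPM in Ctrl, 191, 172 and 189.6 in Ctrl_HF, and 213, 214 and 216 in TTg_HF. Its TTg_HF libraries were close together and overlapped with Ctrl (0.22, SE 0.084, edgeR adjusted p = 0.27 against Ctrl_HF). Cox4i2, the low-abundance isoform of Cox4i1 known from lung, was at 3.46, 3.81 and 3.52 CPM in Ctrl, 2.33, 4.68 and 3.01 in Ctrl_HF, and 5.28, 4.95 and 5.16 in TTg_HF. The 3 TTg_HF libraries lay above the other 6 (0.62, SE 0.26, edgeR adjusted p = 0.303), from 36 to 47 counts per TTg_HF library. Ndufaf1 had a log2 fold change of 0.29 (SE 0.10, edgeR adjusted p = 0.209) and Sdhaf4 of 0.27 (SE 0.11, edgeR adjusted p = 0.27). Sdhd had 0.14 (SE 0.062, edgeR adjusted p = 0.323). Of the cardiomyocyte markers 7 of 10 were above 0 with 0 called, and of the mitochondrial genome's genes 10 of 13 with 0 called. All 6 erythroid markers were below 0 (median -0.87, 3 or 50% without overlap). So were all 5 tested atrial markers (median -0.61, 1 or 20% without overlap), with 0 called in either list. The share of all genes lower without overlap was 9.53%. Acta1, the skeletal actin, was at 132, 261 and 401 CPM in Ctrl, 685, 1071 and 1377 in Ctrl_HF, and 312, 322 and 473 in TTg_HF (-1.50, SE 0.44, edgeR adjusted p = 0.21 against Ctrl_HF). The other tested gene of the skeletal muscle list was at -0.15, with overlap. Above 0 were 5 of 10 fibroblast, 4 of 10 macrophage, 6 of 10 endothelial and 4 of 10 smooth muscle and pericyte markers, with 0 called. The part of these markers in the members' values was not tested.

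In TTg_HF against Ctrl, which differ in both the transgene and the treatment, 0 of 94 members were called by edgeR, and 0 by DESeq2. The background was 0.466% of genes by edgeR, 0.284% higher and 0.182% lower, and 1.55% by DESeq2. The log2 fold change was below 0 for 64 members, with a median of -0.049, against 50.3% of all genes below 0. At an unadjusted p under 0.05, 7 members (7.45%) were lower and 0 higher, against 4.37% and 5.04% of all genes. TTg_HF lay below Ctrl without overlap for 18 members (19.1%) and above it for 2 (2.13%), against 9.48% and 9.23%. The 7 lower members were Ndufb5, Sdhb, Uqcrc1, Cox5a, Atp5a1, Atp5h and Atp5o, and the 2 above without overlap were Ndufa3 and Cox4i2. Sdhb had the lowest adjusted p, with a log2 fold change of -0.18 (SE 0.065, edgeR adjusted p = 0.36). Atp5o was at -0.15 (SE 0.066, edgeR adjusted p = 0.494). The median over complex II subunits relative to the Ctrl mean was -0.083, -0.089 and -0.096 in the TTg_HF libraries, between the Ctrl and the Ctrl_HF libraries. The medians for complexes I and IV had no constant sign: they were -0.048 and -0.021, and ranged over the alternative analyses from -0.10 to 0.022 and from -0.075 to 0.072. All 10 cardiomyocyte markers were below 0 in this comparison (median -0.25), with Myl3 called lower. All 10 fibroblast markers were above 0 (median 0.47, 8 without overlap, 0 called), as were all 10 macrophage markers (median 0.50, 7 without overlap), with Mrc1 called higher. Of all genes 9.23% lay above Ctrl without overlap. Above 0 were 9 of 10 endothelial, 4 of 10 smooth muscle and pericyte, 1 of 6 erythroid and 2 of 5 tested atrial markers, and 12 of the 13 genes of the mitochondrial genome, with 0 called. Of the 2 tested genes of the skeletal muscle list, Acta1 was above 0 (0.48) with overlap and the other below 0 (-0.29) without overlap, with 0 called. The part of these markers in the members' values was not tested.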

How the data were processed

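Each library of the deposited table has 3 columns. The counts are whole numbers per gene symbol, called expression values per the file headers, with no scaling found in them. The second column is a signal that the authors called normalized, and the third its log2 transform, per the file headers. Tests used the counts, and the factors behind the signal served as 1 alternative. Per the submitters' processing notes, the genome build was mm10. Aligner, counter, annotation and the use of strand in counting were not given in the sources used here. Exons of 35 members overlap another gene in GENCODE vM21, 5 of them on the same strand, and reads shared with paralogues or processed pseudogenes could be split, so these values carry that uncertainty.

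Genes were kept by filterByExpr (minimum count 10, minimum total 15), which left 12670. Counts were scaled by TMM and fitted with edgeR 4.0.16 (R 4.3.3) in 1 quasi-likelihood model of 9 libraries with group as the only term (median biological coefficient of variation 0.131). Tests were two-sided F tests, with p adjusted by Benjamini-Hochberg across the 12670 genes and a threshold of 0.05. Each SE was taken as the size of the log2 fold change over the root of its F value. The fit was also run on counts simulated with its own dispersions. Those runs check neither the dispersions nor the recovery of changes as small as the members' medians. Where 3 libraries face 3, a permutation test cannot go below 0.1, so none was used. Transcript length is that of the best-supported principal transcript, the shortest where several tie, a rule set after lengths were seen. Depth limits the members with the lowest counts, such as Cox6b2 and Cox4i2.

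Members, roles and lists were chosen with earlier results of these data known. Named members are those past the threshold, the 3 of lowest p per complex and among the assembly factors in Ctrl_HF against Ctrl, the 2 of lowest p in TTg_HF against Ctrl_HF, the isoform pairs, 6 catalytic or electron-transfer subunits, and the highest and lowest by level. That gives 33, and other genes were named after their values were seen. Alternatives were other scalings, filters, DESeq2 1.42.0, fits of the 2 groups alone, a replicate block and leaving out each library. Leaving out Ctrl_HF replicates 2 and 3 together and removing a trend on length (loess, span 0.3) were added after seeing the data. Summaries were made in Python 3.11.15 and figures with matplotlib 3.10.9.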

Additional observations from a re-analysis of the deposited data

How the results depend on the processing

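The median log2 fold change of the members kept its sign in all 20 alternative analyses of each comparison, at -0.17 to -0.078 in Ctrl_HF against Ctrl, 0.058 to 0.11 in TTg_HF against Ctrl_HF and -0.097 to -0.019 in TTg_HF against Ctrl. Members lower at an unadjusted p under 0.05 in Ctrl_HF against Ctrl numbered 19 to 35. Members called in that comparison were 1, against 8 by DESeq2 (Atp5a1, Atp5c1, Atp5o, Ndufs1, Ndufv2, Sdhaf4, Sdhb and Uqcrc1), 2 without the mitochondrial genome's genes (Atp5a1 and Atp5o), 2 with the length trend removed, and 0 with the 2 groups alone, with no low-count filter, with the replicate block and without Ctrl_HF replicates 2 and 3. Leaving out 1 library gave 0 to 5 (Atp5a1, Atp5o, Ndufaf1, Sdha and Sdhaf4 without Ctrl_HF replicate 1). In the other comparisons 0 members were called in every analysis run, DESeq2 included. Genes called in Ctrl_HF against Ctrl were 458, against 126 with 2 groups alone, 833 by DESeq2, 161 without Ctrl_HF replicates 2 and 3, and 85 (without Ctrl replicate 2) to 1122 (without Ctrl_HF replicate 1) without 1 library. In TTg_HF against Ctrl they were 59, against 117, 184 and 122 in the same settings, 118 with no low-count filter, and 24 (without Ctrl replicate 2 or TTg_HF replicate 2) to 114 (without Ctrl_HF replicate 1). In TTg_HF against Ctrl_HF they were 11, against 0, 341 and 27, 109 with no low-count filter, and 2 (without TTg_HF replicate 2) to 665 (without Ctrl_HF replicate 1). The cause of these changes was not tested. Libraries with the same replicate number did not deviate together in every pair (correlations -0.16 to 0.20), so the numbers were not taken to pair the libraries. With the replicate block Atp5o had an edgeR adjusted p of 0.0685, and no member was called. Depth limits the low members most, among them Cox6b2 (not tested), Cox4i2, Ndufaf2, Sdhaf1 and Ndufa4l2, with means of 1.15, 3.60, 7.63, 8.005 and 9.84 CPM in Ctrl. The analyses without Ctrl_HF replicates 2 and 3 and with the length trend removed were added after seeing the data.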
